A study of Mus musculus with 8 samples.

Results

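Retinoic acid is made from retinol, vitamin A, in a short chain of steps, and the 9 genes described here cover that chain in the mouse uterus: Stra6, Rdh10, Aldh1a1, Aldh1a2, Aldh1a3, Crabp2, Cyp26a1, Cyp26b1 and Rarb. They were chosen by name as rows of a count table of 52308 genes, with earlier results of these data known. RNA was sequenced from the excised uterus of female ICR mice, an outbred stock, aged 6-8 weeks, with vaginal smears used to place each animal in proestrus, estrus, metestrus or diestrus. All groups share the strain, the sex and this age range, none was treated, and the labels tell them apart by the stage of the cycle alone. There were 2 libraries per stage, 8 in all. The question was which uterine genes depend on the estrous cycle.

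Cells take up retinol through the membrane receptor STRA6. RDH10 oxidises retinol to retinaldehyde, and the retinaldehyde dehydrogenases ALDH1A1, ALDH1A2 and ALDH1A3 turn retinaldehyde into retinoic acid. The carrier CRABP2 brings retinoic acid to nuclear receptors such as RARB, which switch on target genes, while the cytochromes CYP26A1 and CYP26B1 hydroxylate it and so end the signal. In the rodent uterus, synthesis of retinoic acid is known from the stroma and Crabp2 is known as an estrogen-responsive gene of the epithelium, and Cyp26a1 is known for its rise around implantation.

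Total counts per library lay between 17863546 and 21896786. Levels are given in CPM, counts scaled to the TMM-normalised library size, and, for comparing genes, in RPKM, CPM per kilobase of merged exons. Markers of stroma, epithelium and smooth muscle were present in each library, with summed levels of at least 6516, 748.3 and 6455 CPM, and those of oviduct and ovary summed to at most 19.5 CPM. The 2 diestrus libraries stood apart from each other. Of the genes tested, 2713 lay over 2-fold apart between them, against 1448 between the proestrus, 1282 between the estrus and 837 between the metestrus libraries. Summed over 5 genes, the markers of uterine glands reached 7718 CPM in diestrus library 1 and 53.7 CPM in diestrus library 2. Prss28 and Prss29, serine proteases of the glands, had 2039 and 5509 CPM in library 1 and 0 and 0.0504 CPM in library 2, Spink1 had 153 and 0.454 CPM, and Cxcl15 ran the other way with 2.20 and 35.8 CPM. Values are therefore given for each library. Nothing in the labels says whether 2 libraries of a stage came from separate animals. The p-values set differences between stages against the spread of these samples, which may not be the spread between animals.

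Of the 9 genes, 7 changed across the 4 stages at an adjusted p under 0.05 in edgeR's quasi-likelihood test, a share of 77.8% where 39.1% of the 18114 tested genes did so. Aldh1a1 and Rarb did not. The count of 7 fell without proestrus library 1, either estrus library or either metestrus library, and rose without either diestrus library. The number called among all tested genes fell and rose in the same fits. The count was 6 with limma-voom and with the replicate number as a block, and 8 with DESeq2 and with no filter on low counts. The synthesis gene Aldh1a2 and the carrier gene Crabp2 peaked in proestrus, the uptake gene Stra6 was high in metestrus and diestrus, and the breakdown genes were highest at other stages, Cyp26b1 in estrus and Cyp26a1 in diestrus. All fold changes are log2 values with their SE, and all p-values are two-sided, from edgeR, and adjusted by Benjamini-Hochberg over all tested genes. In whole tissue, fewer cells of a type and less RNA per cell cannot be told apart.

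**Figure D1:**
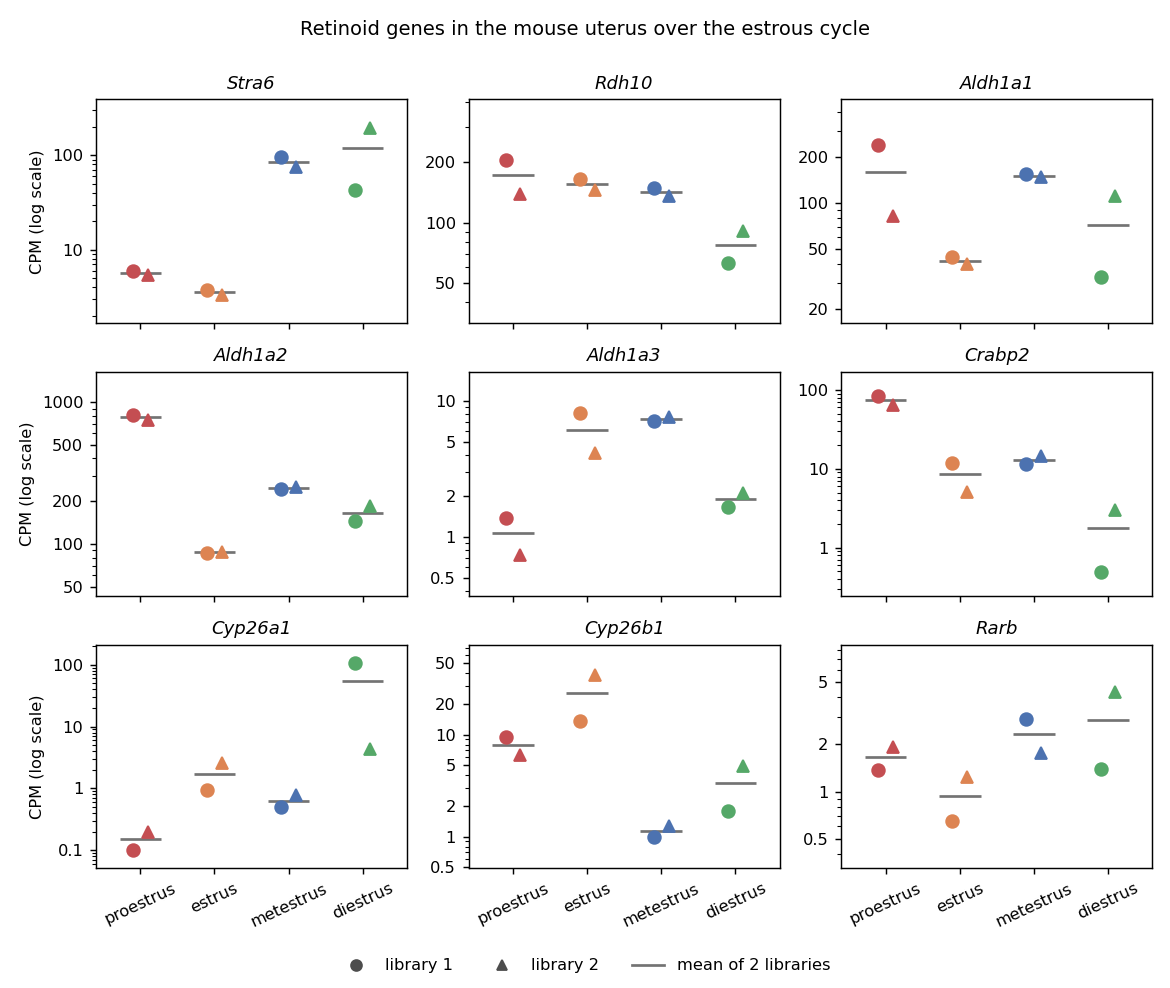
Levels of the 9 retinoid genes in CPM on a log axis, by stage of the cycle. Circles and triangles are libraries 1 and 2 of a stage and bars are their means. Aldh1a2 is highest in both proestrus libraries (813 and 750 CPM), Stra6 in metestrus and diestrus, and Cyp26a1 in diestrus library 1 (106 CPM).

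Stra6, the retinol uptake receptor (ENSMUSG00000032327, chromosome 9, 58063788 to 58153996, plus strand, GRCm38), separated the cycle into low and high stages. It measured 5.95 and 5.46 CPM in proestrus, 3.75 and 3.36 CPM in estrus, 95.2 and 75.7 CPM in metestrus, and 43.2 and 194.8 CPM in diestrus. Every metestrus and diestrus library lay above every proestrus and estrus library, and the diestrus libraries enclosed the metestrus ones. Stra6 changed across the stages (adjusted p = 0.00523). It was higher in metestrus than in estrus by 4.58 ± 0.71 (adjusted p = 0.00505) and higher in metestrus than in proestrus by 3.90 ± 0.68 (adjusted p = 0.0141). Proestrus and estrus lay below diestrus, with log2 fold changes of -4.38 ± 0.69 (adjusted p = 0.00760) and -5.06 ± 0.72 (adjusted p = 0.00558). Differences between neighbouring stages of like level did not pass, with -0.68 ± 0.68 for estrus against proestrus (adjusted p = 0.519) and 0.48 ± 0.59 for diestrus against metestrus (adjusted p = 0.697). The last value depends on which diestrus library is kept. It was 1.18 without library 1 (adjusted p = 0.0262) and -1.02 without library 2 (adjusted p = 0.0213), and over all alternatives its adjusted p lay between 0.0213 and 0.949. The metestrus-proestrus call ended without any of the 4 libraries of that pair (adjusted p 0.0710 to 0.104), the proestrus-diestrus call without proestrus library 1 (0.0644) and the estrus-diestrus call without estrus library 1 (0.0517). The estrus-proestrus difference passed without diestrus library 1 (0.0300) or 2 (0.0310).

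Rdh10, the retinol dehydrogenase of the first oxidation (ENSMUSG00000025921, chromosome 1, 16105774 to 16133734, plus strand), moved least. Its level was 206.5 and 139 CPM in proestrus, 165 and 146 CPM in estrus, 149 and 135 CPM in metestrus, and 63.0 and 91.3 CPM in diestrus. The diestrus libraries lay below all others, and the other 3 stages overlapped. Rdh10 changed across the stages (adjusted p = 0.0340). Proestrus exceeded diestrus by 1.16 ± 0.24 (adjusted p = 0.0185), and estrus exceeded diestrus by 1.01 ± 0.24 (adjusted p = 0.0270). For metestrus and diestrus the difference was similar in size, -0.88 ± 0.24 for diestrus against metestrus, and did not pass (adjusted p = 0.167), although it passed without diestrus library 2 (-1.21, adjusted p = 0.0306). The call across the stages ended when any library other than proestrus library 2 or diestrus library 2 was left out (adjusted p 0.0565 to 0.0908), and under the replicate block (0.0528). For proestrus and diestrus the call was lost without proestrus library 1 (0.105), and for estrus and diestrus without either estrus library, either metestrus library or diestrus library 1 (0.0588 to 0.137).

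Aldh1a2, the retinaldehyde dehydrogenase of the stroma (ENSMUSG00000013584, chromosome 9, 71215789 to 71296243, plus strand), gave the most precise pattern of the 9. It measured 813 and 750 CPM in proestrus, 86.3 and 87.5 CPM in estrus, 245.5 and 251 CPM in metestrus, and 145 and 184 CPM in diestrus. No stage overlapped another, and the order was proestrus, metestrus, diestrus, estrus. Aldh1a2 changed across the stages (adjusted p = 0.000606). Estrus lay below proestrus by a log2 fold change of -3.17 ± 0.15 (adjusted p = 0.00128), metestrus above estrus by 1.51 ± 0.14 (adjusted p = 0.00164) and proestrus above diestrus by 2.25 ± 0.14 (adjusted p = 0.000918). Every one of the 15 alternative settings kept these 3 pairs called. Levels in estrus were also below those in diestrus (-0.92 ± 0.14, adjusted p = 0.00686), and levels in metestrus below those in proestrus (-1.65 ± 0.14, adjusted p = 0.00331). Leaving out estrus library 1 ended the estrus-diestrus call (0.0560), and leaving out metestrus library 2 ended the metestrus-proestrus call (0.0552). The difference of diestrus and metestrus, -0.59 ± 0.14, did not pass (adjusted p = 0.142), but passed without diestrus library 2 (-0.81, adjusted p = 0.0115). Summed stroma markers were 14400 and 16860 CPM in proestrus and 10030 and 6516 CPM in estrus. They were 15470 and 10590 CPM in metestrus and 12690 and 12220 CPM in diestrus, a narrower range than that of Aldh1a2. Col1a1 and Col3a1 were lower in estrus than in proestrus, as the sum was, and Dcn overlapped between these stages. Pdgfrb was highest in estrus (287 and 255 CPM, against 147 and 172 CPM in proestrus). Pdgfra was also higher in estrus (493 and 370 CPM, against 218 and 305.5 CPM in proestrus), and Hand2 was highest in diestrus (52.2 and 79.8 CPM). The part of stroma in the Aldh1a2 change was not tested.

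Aldh1a1 (ENSMUSG00000053279, chromosome 19, 20492715 to 20643465, plus strand), a second retinaldehyde dehydrogenase, did not pass the test and differed widely within proestrus and within diestrus. It had 240.3 and 81.9 CPM in proestrus, 44.1 and 39.7 CPM in estrus, 155 and 148 CPM in metestrus, and 32.5 and 112 CPM in diestrus. Both metestrus libraries and both proestrus libraries lay above the estrus pair, while the diestrus libraries fell on either side of it. The proestrus libraries differed 2.93-fold and the diestrus libraries 3.44-fold. The test across the stages gave an adjusted p of 0.119. Estrus against proestrus was -1.94 ± 0.66 (adjusted p = 0.0919) and metestrus against estrus was 1.85 ± 0.66 (adjusted p = 0.0667). Without diestrus library 1 these 3 tests passed (adjusted p = 0.0398, 0.0246 and 0.0154), and without diestrus library 2 they did too (0.0177, 0.0248 and 0.0155). DESeq2 (0.00574, 0.00479 and 0.00387) and edgeR with no filter on low counts (0.0274, 0.0253 and 0.0167) also called them. The metestrus-estrus difference also passed without proestrus library 1 (0.0473) or 2 (0.0476), and proestrus against diestrus passed at 2.31 without diestrus library 2 (0.0356), against 1.16 ± 0.64 with all libraries (0.238).

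Aldh1a3 (ENSMUSG00000015134, chromosome 7, 66390890 to 66427517, minus strand), the third enzyme of this step, was scarce and followed another order. It measured 1.38 and 0.744 CPM in proestrus, 8.10 and 4.13 CPM in estrus, 7.14 and 7.53 CPM in metestrus, and 1.66 and 2.12 CPM in diestrus. Estrus and metestrus lay above proestrus and diestrus in every library, so that Aldh1a3 was high in estrus, where Aldh1a2 was at its lowest. Aldh1a3 changed across the stages (adjusted p = 0.00989). Estrus exceeded proestrus by 2.52 ± 0.45 (adjusted p = 0.0169), metestrus exceeded proestrus by 2.78 ± 0.45 (adjusted p = 0.0116), and estrus exceeded diestrus by 1.69 ± 0.43 (adjusted p = 0.0318). The difference of metestrus and estrus (0.26 ± 0.40, adjusted p = 0.644) did not pass, nor did that of proestrus and diestrus (-0.83 ± 0.45, adjusted p = 0.228). Diestrus against metestrus was -1.95 ± 0.43 and did not pass (adjusted p = 0.122). The estrus-proestrus call ended without either proestrus library or estrus library 1 (0.0509 to 0.0980). The metestrus-proestrus call ended without proestrus library 1 or either metestrus library (0.0508 to 0.0815). Only leaving out estrus library 2 or a proestrus library kept the estrus-diestrus call among the fits that lack a library (0.0522 to 0.165 in the others).

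Per length, Aldh1a2 was the leading transcript of this step in all 8 libraries, with 76.7% to 95.2% of the summed RPKM of the 3 genes. The sum was 408 and 348 RPKM in proestrus, 48.8 and 47.6 RPKM in estrus, 141 and 142.5 RPKM in metestrus, and 71.0 and 104 RPKM in diestrus. Aldh1a1 held between 4.76% and 22.2% of it, and Aldh1a3 at most 3.59%, in estrus library 1. These shares describe RNA and leave out how active each enzyme is.

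Crabp2, the carrier that hands retinoic acid to its nuclear receptors (ENSMUSG00000004885, chromosome 3, 87948666 to 87953376, plus strand), was high in proestrus and lowest in diestrus. It had 84.3 and 64.0 CPM in proestrus, 12.01 and 5.06 CPM in estrus, 11.4 and 14.7 CPM in metestrus, and 0.495 and 3.03 CPM in diestrus. Proestrus lay above and diestrus below all other libraries, and estrus and metestrus overlapped. Crabp2 changed across the stages (adjusted p = 0.00781). Estrus against proestrus was -3.12 ± 0.69 (adjusted p = 0.0303), metestrus against proestrus was -2.51 ± 0.66 (adjusted p = 0.0465), and proestrus against diestrus was 5.41 ± 0.79 (adjusted p = 0.00581). Of these, the proestrus-diestrus call held under all 15 alternatives. Leaving out any proestrus, estrus or metestrus library ended the estrus-proestrus call (0.0672 to 0.145) and the metestrus-proestrus call (0.0647 to 0.218), and the replicate block also ended the second (0.0622). Diestrus against metestrus (-2.91 ± 0.73, adjusted p = 0.154) and estrus against diestrus (2.30 ± 0.73, adjusted p = 0.0637) did not pass, and both passed without diestrus library 2 (-4.74 and 4.08, adjusted p = 0.0129 and 0.0108). The 6 epithelium markers summed to 4463 and 3622 CPM in proestrus, 3161 and 2740 CPM in estrus, 1147 and 1082 CPM in metestrus, and 748.3 and 980.4 CPM in diestrus. Their sum too was highest in proestrus and lowest in diestrus, over a smaller range. Not every marker followed the sum: Wnt7a was highest in metestrus library 1 (53.0 CPM, against 30.4 and 32.4 CPM in proestrus), and Krt18 had 257 and 133 CPM in diestrus, on either side of its 151 and 145 CPM in metestrus. Cdh1 overlapped between proestrus and estrus, and Cdh1 and Krt19 overlapped between metestrus and diestrus. The part of epithelium in the Crabp2 result was not tested.

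Cyp26b1, a hydroxylase that inactivates retinoic acid (ENSMUSG00000063415, chromosome 6, 84571414 to 84593908, minus strand), was highest in estrus and lowest in metestrus. Its level was 9.38 and 6.30 CPM in proestrus, 13.6 and 38.2 CPM in estrus, 0.982 and 1.28 CPM in metestrus, and 1.80 and 4.89 CPM in diestrus. No stage overlapped another, though the estrus libraries differed 2.82-fold. Cyp26b1 changed across the stages (adjusted p = 0.0101), and this call ended without metestrus library 1 (0.0515). Metestrus lay below estrus (-4.51 ± 0.70, adjusted p = 0.00527), which all 15 alternatives kept. Metestrus also lay below proestrus (-2.78 ± 0.67, adjusted p = 0.0357), and estrus lay above diestrus (2.95 ± 0.64, adjusted p = 0.0205). The metestrus-proestrus call ended without any of its own 4 libraries (0.0749 to 0.181) and with limma-voom (0.0997), and the estrus-diestrus call without estrus library 2 (0.0937). Estrus against proestrus was 1.72 ± 0.61 (adjusted p = 0.101), and leaving out diestrus library 1 (0.0464) or 2 (0.0473) brought it past the threshold. Diestrus against metestrus was 1.55 ± 0.67 (adjusted p = 0.280) and proestrus against diestrus was 1.23 ± 0.62 (adjusted p = 0.198). The 5 macrophage markers were each highest in both estrus libraries too, with sums of 895 and 974 CPM there, against 268 to 417 CPM in the other stages. The 4 neutrophil markers summed to 84.0 and 113 CPM in estrus, against 10.5 to 41.5 CPM elsewhere. Retnlg gave most of the estrus sums (75.3 and 110.1 CPM), and the other neutrophil markers were not highest in both estrus libraries. Ly6g was highest in proestrus (6.512 and 5.112 CPM, against 1.451 and 1.497 CPM in estrus). S100a8 and S100a9 overlapped between these stages. The part of macrophages and neutrophils in the Cyp26b1 result was not tested.

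Cyp26a1, the second hydroxylase (ENSMUSG00000024987, chromosome 19, 37697798 to 37701536, plus strand), was close to undetected in proestrus and abundant in a single library. It had 0.103 and 0.199 CPM in proestrus (2 and 4 counts), 0.950 and 2.53 CPM in estrus, 0.491 and 0.770 CPM in metestrus, and 106 and 4.29 CPM in diestrus (2352 and 85 counts). Diestrus library 1 held 92.6% of all Cyp26a1 counts of the series and 24.7 times the CPM of diestrus library 2, which itself lay above the 6 libraries of the other stages. Cyp26a1 changed across the stages (adjusted p = 0.0138), and the call held without diestrus library 1 or 2 but ended without metestrus library 1 (0.0501) or 2 (0.0504) and with limma-voom (0.321). Proestrus lay below diestrus (-8.45 ± 1.80, adjusted p = 0.0201), and estrus lay below diestrus with a difference of -4.98 ± 1.39 (adjusted p = 0.0435). Without diestrus library 1 the estrus-diestrus value was -1.33 (adjusted p = 0.155), and that call survived no removal of a library other than diestrus library 2. It was also lost with limma-voom (-3.84, 0.2645), with the replicate block (-4.41, 0.109) and with only the libraries of the pair (0.127). The proestrus-diestrus call was lost when proestrus library 1 (0.134) or 2 (0.0978) was removed, with limma-voom (-7.06, 0.2855) and with only the libraries of the pair (0.0881). It held without either diestrus library, at -4.79 without library 1 (0.00695) and -9.39 without library 2 (0.000492). Diestrus against metestrus was 6.43 ± 1.53 and did not pass (adjusted p = 0.145), and was 2.74 without diestrus library 1 (0.114) and 7.34 without library 2 (0.00147). Estrus against proestrus was 3.47 ± 1.89 (adjusted p = 0.247), with adjusted p = 0.0163 once diestrus library 1 was removed and 0.0149 once library 2 was. The same diestrus library 1 held the high levels of Prss28, Prss29 and Spink1 given above, while Foxa2, the transcription factor that defines uterine glands, had 14.3 CPM in it and 17.4 CPM in library 2. Summed markers of smooth muscle (16780 and 6455 CPM in diestrus libraries 1 and 2), mesothelium (73.9 and 14.5 CPM) and endothelium (722 and 535 CPM) were also higher in library 1, and for each of these lists it was the highest of the 8 libraries. The part of these tissues and of glands in the Cyp26a1 value was not tested.

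**Figure D2:**
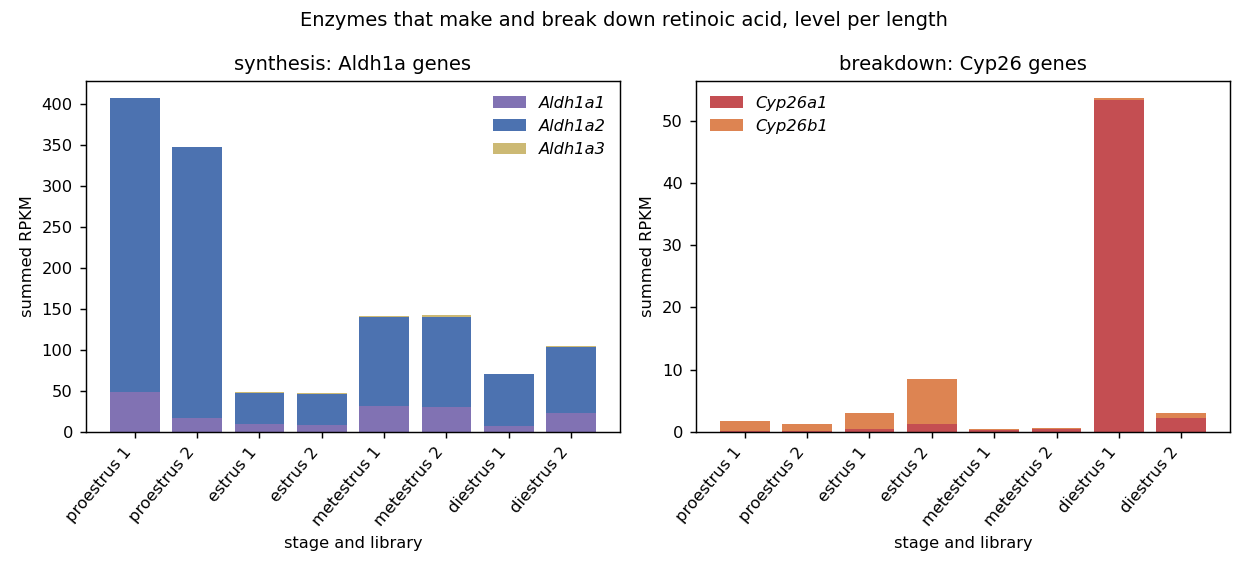
Summed level per length, in RPKM, of the Aldh1a genes that make retinoic acid (left) and of Cyp26a1 and Cyp26b1, which break it down (right), by library. Colours give each gene's part. The Aldh1a sum is highest in proestrus (408 and 348 RPKM) and is mostly Aldh1a2, and the Cyp26 sum reaches 53.7 RPKM in diestrus library 1, almost all from Cyp26a1.

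The breakdown genes changed places over the cycle. Of the summed Cyp26 RPKM, Cyp26b1 made up 97.1% and 92.2% at proestrus, 84.1% and 84.8% at estrus, 42.6% and 38.2% at metestrus, and 0.626% and 29.7% at diestrus, and Cyp26a1 gave the rest. The sum was 1.81 and 1.28 RPKM in proestrus, 3.01 and 8.41 RPKM in estrus, 0.431 and 0.628 RPKM in metestrus, and 53.7 and 3.08 RPKM in diestrus. The ratio of the Aldh1a sum to the Cyp26 sum was 226 and 272.5 for the proestrus libraries, 16.2 and 5.65 for the estrus, 328 and 227 for the metestrus, and 1.32 and 33.9 for the diestrus libraries. Proestrus and metestrus libraries thus had the higher ratios, with estrus and diestrus below all of them. This is a ratio of transcripts and not of retinoic acid made and removed. The metestrus shares and ratios rest on few counts, 22 and 30 for Cyp26b1 and 11 and 18 for Cyp26a1. In proestrus Cyp26a1 had 2 and 4 counts.

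Rarb, a retinoic acid receptor and itself a target of retinoic acid (ENSMUSG00000017491, chromosome 14, 16430839 to 16819156, minus strand), was scarce at every stage. It measured 1.38 and 1.94 CPM in proestrus, 0.650 and 1.24 CPM in estrus, 2.90 and 1.75 CPM in metestrus, and 1.39 and 4.34 CPM in diestrus. The estrus libraries lay below all others, and the remaining stages overlapped. Rarb did not pass across the stages (adjusted p = 0.233) and did so without diestrus library 1 (0.0470), as did estrus against diestrus (-2.22 without that library, 0.0233, against -1.59 ± 0.63 with all, 0.115). Its exons share 1793 bases, 34.1% of their length, with Top2b on the opposite strand. The libraries were stranded, but whether counting used the strand is not given in the sources used here. It is therefore not known whether reads over the shared bases were told apart.

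Cyp26a1 and Rarb are textbook direct targets of retinoic acid, through a pair of receptor hexamers set 5 bases apart, and their promoters are shown because both hold this element. Windows of 300 bases, 250 before to 50 after the transcription start, came from RefSeq (GRCm38.p6), and 6 of the 9 genes matched one. Rdh10, Aldh1a3 and Crabp2 did not match. The search on both strands was for 2 hexamers in the same direction, each spelled AGGTCA as in the consensus, AGTTCA as in the Cyp26a1 and Rarb promoters, GGGTCA as a further form, or GGTTCA as in the Rarb promoter, with 1, 2 or 5 bases between them. The gene's own strand is printed, and capitals mark the hexamers. The Cyp26a1 window is chr19:37697558-37697857 on the plus strand, with the element on the opposite strand 32 to 16 bases before the start. The Rarb window is chr14:16575427-16575726 on the minus strand, with the element 53 to 37 bases before the start. This start lies inside the annotated gene and belongs to a shorter transcript.
Cyp26a1: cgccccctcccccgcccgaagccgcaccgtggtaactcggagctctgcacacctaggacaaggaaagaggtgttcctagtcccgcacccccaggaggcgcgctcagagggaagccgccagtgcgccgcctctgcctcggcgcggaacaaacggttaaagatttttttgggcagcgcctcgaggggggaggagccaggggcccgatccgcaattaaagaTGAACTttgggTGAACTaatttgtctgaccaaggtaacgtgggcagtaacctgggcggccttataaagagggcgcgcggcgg
Rarb: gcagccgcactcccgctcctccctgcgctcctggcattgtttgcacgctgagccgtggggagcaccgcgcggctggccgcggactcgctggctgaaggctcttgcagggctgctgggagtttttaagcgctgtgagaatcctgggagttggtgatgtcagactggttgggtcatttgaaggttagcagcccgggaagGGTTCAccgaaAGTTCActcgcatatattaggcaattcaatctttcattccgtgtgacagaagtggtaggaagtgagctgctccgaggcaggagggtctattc

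Since spellings were taken from the Cyp26a1 and Rarb promoters, the match in both was fixed by the search and is no result. The same search matched 0.0974% of the 32851 windows at this spacing. Spacings of 1 and 2 bases were found in 0.222% and 0.268% of windows and in none of the 6 genes. The palindromic estrogen response element, made of GGTCA, then 3 bases of any kind, and then TGACC, was in none of the 6 either, and in 0.07% of windows. A match describes letters in a window and no match says only that they are not there. The levels of both genes differed in opposite senses between the diestrus libraries, with Cyp26a1 24.7 times higher and Rarb 3.11-fold lower in library 1 than in library 2.

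Between estrus and proestrus, 3 of the 9 genes changed, 1 higher and 2 lower, where 15.1% of all tested genes were called (8.12% higher and 6.94% lower). The median log2 fold change of the 9 was -0.68, against 0.01 over all tested genes. The count was 1 without proestrus library 1, proestrus library 2 or estrus library 1, and 7 without diestrus library 1 or 2. Between metestrus and estrus 3 changed, Stra6 and Aldh1a2 higher and Cyp26b1 lower, where 36.2% of all genes were called (16.7% higher and 19.5% lower), so this share is near the background. Medians in this pair were 0.61 for the 9 and -0.05 for all genes, and no removal of a library took the count outside 3 to 4.

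Between diestrus and metestrus 0 of the 9 passed in edgeR, against 0.508% of all genes (0.282% higher and 0.226% lower), while 5 had an unadjusted p under 0.05. DESeq2 called 5 (Rdh10, Aldh1a2, Aldh1a3, Crabp2 and Cyp26a1) and limma-voom called 0. Over all 18114 tested genes, edgeR called 92, DESeq2 980 and limma-voom 85. In edgeR the count of the 9 rose without diestrus library 1 or 2, and so did the number called over all genes. The median was -0.59 for the 9 and 0.02 for all genes. For proestrus against diestrus there were 5 calls, 3 higher and 2 lower, where 22.4% of all genes were called (12% higher and 10.4% lower), and 2 calls without proestrus library 1. Estrus against diestrus gave 6 calls, 3 in each direction, where 23.8% of all genes were called (13.9% higher and 9.97% lower). Without estrus library 1 that count was 1, and without estrus library 2 or either metestrus library it was 3. Metestrus against proestrus gave 5 calls, 2 higher and 3 lower, where 16.9% of all genes were called (6.68% higher and 10.3% lower). It gave 1 call without proestrus library 1 or metestrus library 1, 2 without proestrus library 2 and 0 without metestrus library 2. Of the 9, 5 had an unadjusted p under 0.05 in the fit without metestrus library 2. Medians were 1.16, -0.78 and -0.09 for the 9 in these 3 pairs, and -0.01, -0.02 and 0.01 for all genes. In the fits named for these pairs and for estrus against proestrus, the number called over all genes fell or rose with the count of the 9.

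**Figure D3:**
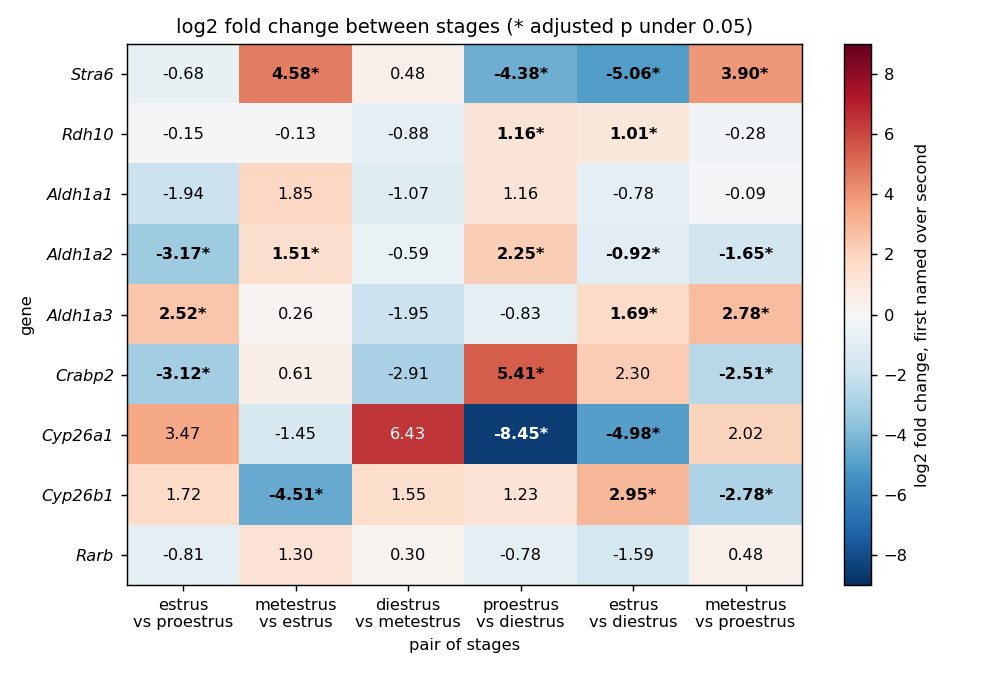
Log2 fold changes of the 9 genes in the 6 pairs of stages, the first named stage over the second. Asterisks mark an adjusted p under 0.05. Cyp26a1 has the widest range, with 6.43 for diestrus against metestrus, which did not pass, and -8.45 for proestrus against diestrus, and no value of the diestrus-metestrus column is marked.

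The genes most like each member were sought among 11663 protein-coding tested genes with a mean of 5 CPM or more, by Pearson's r of log2 CPM over the 8 libraries. These points come in pairs that share a stage, and the values are a description. Selenon (r = 0.993), Adcy3 and Zfp239 were closest to Stra6, and Hivep2 (r = 0.967), Zswim5 and Agpat1 to Rdh10. For the synthesis genes they were Smap1 (r = 0.976), Ppp2r5b and Isyna1 with Aldh1a1, Erg28 (r = 0.987), Atp5b and Uqcrb with Aldh1a2, and Slc39a6 (r = 0.921), Entr1 and Ntn1 with Aldh1a3. Crabp2 was matched best by Ssx2ip (r = 0.984), Angptl4 and Mfsd2a. Cyp26a1 was matched by Inpp4a (r = 0.982), Aldh6a1 and Lims1, Cyp26b1 by Serinc3 (r = 0.983), Cyth1 and Ocln, and Rarb by Inpp5b (r = 0.963), H1fx and Ccnq. None of these is on the retinoid lists used here.

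Other genes of the pathway were taken as a list of 49, of which 43 had enough counts to be tested. Across the stages 26 changed, or 60.5% of those tested, against 39.1% of all tested genes, and the count was between 10 and 17 when any proestrus, estrus or metestrus library was left out (16 and 17, 10 and 10, and 12 and 12 for libraries 1 and 2). By role, 5 of 7 genes of retinol transport and storage changed, 10 of 17 other enzymes, both carriers, 4 of 9 receptors and corepressors (44.4%, near the share of all genes), and 5 of 8 known targets of retinoic acid. In the fits that lack a proestrus, estrus or metestrus library, the number called among all tested genes fell too. Genes with the smallest p in each role follow.

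Rbp4 and Ttr, which encode proteins of retinol transport, peaked in estrus. The macrophage sum given for Cyp26b1 did so too, as did the neutrophil sum through Retnlg, and the part of these cells was not tested. Rbp4, the plasma carrier of retinol, had 9.44 and 5.51 CPM in proestrus, 46.1 and 45.3 CPM in estrus, 11.1 and 9.67 CPM in metestrus, and 5.22 and 7.67 CPM in diestrus. Estrus exceeded proestrus by 2.61 ± 0.30 (adjusted p = 0.00551) and metestrus was below estrus (-2.14 ± 0.30, adjusted p = 0.00374), calls that every alternative kept. Its plasma partner Ttr had 4.51 and 0 CPM in proestrus, 34.3 and 36.1 CPM in estrus, 0.0893 and 0.299 CPM in metestrus, and 2.25 and 3.28 CPM in diestrus. Ttr in metestrus was below estrus (-7.45 ± 1.63, adjusted p = 0.0149), and removing any of the 4 libraries of that pair ended this (adjusted p 0.05495 to 0.101).

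Several oxidising enzymes shared the proestrus maximum of Aldh1a2, but this did not hold for all enzymes listed. Of the 17 tested, 3 were called higher in proestrus than in diestrus and 2 lower (29.4%, against 22.4% of all tested genes). Adh1, an alcohol dehydrogenase that acts on retinol, had 615.5 and 646.5 CPM in proestrus, 102 and 75.9 CPM in estrus, 135 and 187 CPM in metestrus, and 123 and 88.2 CPM in diestrus. Estrus was below proestrus (-2.82 ± 0.25, adjusted p = 0.00312) and proestrus above diestrus (2.58 ± 0.25, adjusted p = 0.00198), and all alternatives kept both calls. Dhrs9, a retinol dehydrogenase of epithelia, had 192 and 166 CPM in proestrus, 52.2 and 53.3 CPM in estrus, 15.6 and 18.05 CPM in metestrus, and 8.73 and 3.58 CPM in diestrus, with proestrus above diestrus by 4.86 ± 0.40 (adjusted p = 0.00131). Its order of stages was that of the summed epithelium markers, though not of Wnt7a and Krt18 among them, and Cdh1 and Krt19 overlapped between some stages. The part of epithelium in the Dhrs9 values was not tested. Adh7, a related alcohol dehydrogenase, had 1.30 and 2.22 CPM in estrus, against 12.7 and 13.1 CPM in proestrus (-2.87 ± 0.35, adjusted p = 0.00632). Dhrs3, which returns retinaldehyde to retinol, ran the other way, with 120 and 171 CPM in estrus, against 58.5 and 48.8 CPM in proestrus. Estrus exceeded proestrus by 1.44 ± 0.22 (adjusted p = 0.0114), and removing either proestrus library or estrus library 2 ended that call (0.0509 to 0.0814), and metestrus lay below estrus (-1.64 ± 0.22, adjusted p = 0.00352).

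Of the other carriers, Crabp1 had 35.0 and 38.5 CPM in proestrus, 1.00 and 0.671 CPM in estrus, 19.2 and 19.5 CPM in metestrus, and 0.270 and 8.07 CPM in diestrus. Its levels were highest in proestrus, as those of Crabp2 were, although metestrus against proestrus did not pass (-0.92 ± 0.97, adjusted p = 0.539). Metestrus exceeded estrus by 4.52 ± 1.21 (adjusted p = 0.0280), and leaving out any library of that pair ended this call (up to 0.140). For Crabp2 this pair gave 0.61 ± 0.65 (adjusted p = 0.495), and whether the genes differ was not tested. Fabp5, a carrier that takes retinoic acid to another receptor, had 96.7 and 34.5 CPM in proestrus and 11.9 and 17.6 CPM in diestrus, and proestrus was higher (2.15 ± 0.47, adjusted p = 0.0213). That call was lost without proestrus library 1 (1.22, 0.0639) or diestrus library 1 (0.0620).

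Among receptors, Rara was highest in proestrus. Its mean level per length, 11.5 to 28.04 RPKM over the stages, was above that of Rarb, 0.179 to 0.544 RPKM. Rarg, which did not pass across the stages, had a higher mean than Rara at each stage, 20.4 to 33.6 RPKM. Rara had 131 and 114 CPM in proestrus, 67.5 and 63.9 CPM in estrus, 78.3 and 64.3 CPM in metestrus, and 52.4 and 48.1 CPM in diestrus, with proestrus above diestrus by 1.28 ± 0.14 (adjusted p = 0.00263), a call every alternative kept. Rxra, the shared partner of retinoic acid receptors, had 102 and 90.4 CPM in metestrus, against 162 and 149 CPM in estrus (-0.69 ± 0.11, adjusted p = 0.00497, and 0.0538 without metestrus library 2).

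Known targets of retinoic acid did not follow one course. Meis2, a homeobox gene, had 90.8 and 92.2 CPM in proestrus, 219 and 250 CPM in estrus, 132 and 146 CPM in metestrus, and 152 and 165 CPM in diestrus, and estrus exceeded proestrus by 1.36 ± 0.12 (adjusted p = 0.00312). Rarres2, which encodes chemerin, was also highest in estrus, with 179 and 181 CPM, against 88.6 and 71.4 CPM in proestrus (1.17 ± 0.16, adjusted p = 0.00881, lost without proestrus library 2 or either estrus library, up to 0.0625). The macrophage sum and, through Retnlg, the neutrophil sum were highest in the same estrus libraries. The part of these cells in the values of Meis2 and Rarres2 was not tested. Hic1, a zinc finger repressor, ran the other way, with 148.5 and 132 CPM in metestrus, against 51.2 and 51.6 CPM in estrus (1.45 ± 0.18, adjusted p = 0.00309). Nr2f2, a nuclear receptor of the uterine stroma, had 107 and 107 CPM in proestrus, against 157 and 190.3 CPM in diestrus (-0.70 ± 0.13, adjusted p = 0.0120, lost without either proestrus library, up to 0.0866).

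**Figure D4:**
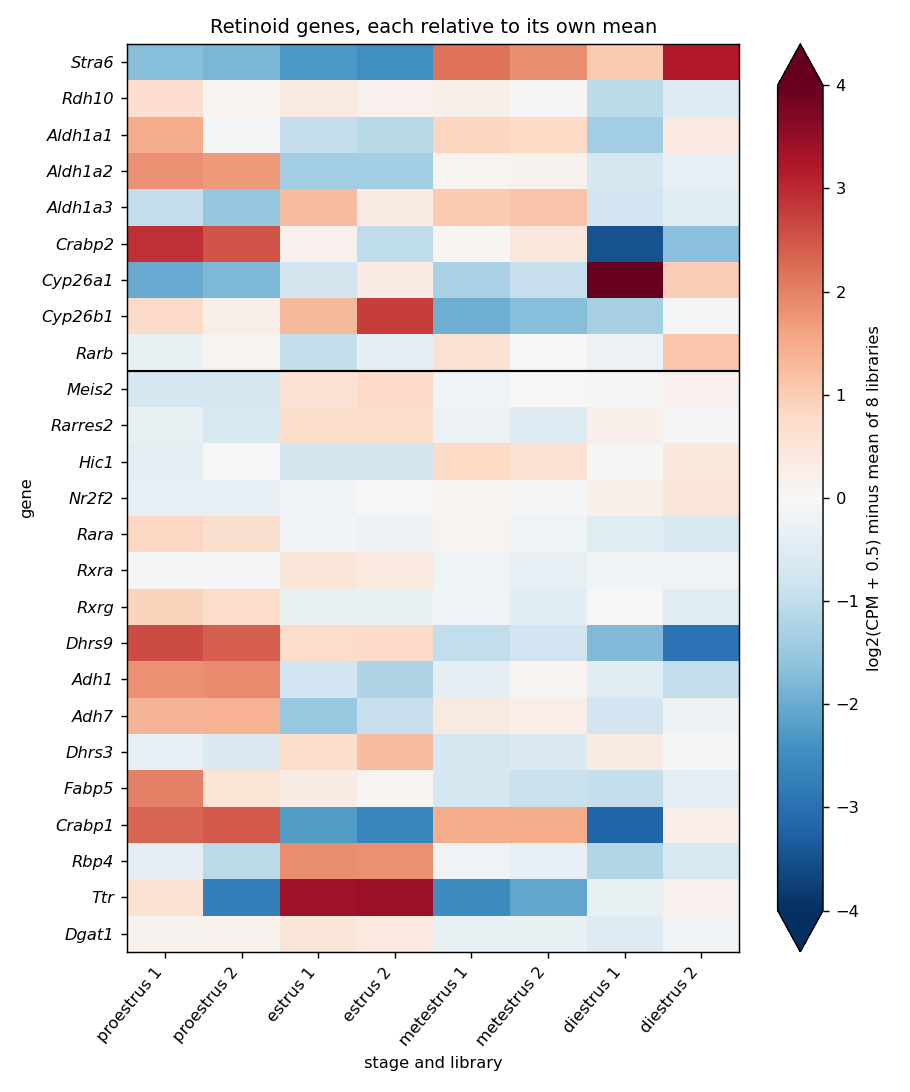
Each gene's log2(CPM + 0.5) minus its own mean over the 8 libraries, with stages and libraries as columns. The 9 genes are above the line and 16 other retinoid genes below it. Aldh1a2, Crabp2, Adh1 and Dhrs9 are highest in both proestrus libraries, Rbp4 and Meis2 in both estrus libraries, and the diestrus libraries differ in Cyp26a1, Crabp2 and Crabp1.

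By pair, the 43 tested genes gave 14 calls between estrus and proestrus (7 higher and 7 lower), or 32.6% against 15.1% of all tested genes, and 20 between metestrus and estrus (8 and 12), or 46.5% against 36.2%. They gave 0 between diestrus and metestrus, against 0.508% (edgeR, with 11 at an unadjusted p under 0.05, 4 by DESeq2 and 0 by limma-voom). There were 12 for proestrus against diestrus (8 and 4), or 27.9% against 22.4%, 12 for estrus against diestrus (9 and 3), or 27.9% against 23.8%, and 8 for metestrus against proestrus (2 and 6), or 18.6% against 16.9%. These last 3 shares are near those of all genes. Leaving out 1 library moved these counts widely, and it also moved the number called among all tested genes. The lowest was 4 for estrus and proestrus without estrus library 2, 6 for metestrus and estrus without metestrus library 2, 4 for proestrus and diestrus without proestrus library 1, 3 for estrus and diestrus without estrus library 2, and 0 for metestrus and proestrus without metestrus library 1 or 2, with 13 and 15 at an unadjusted p under 0.05. The highest was 11 for diestrus and metestrus without diestrus library 2, and 18 for metestrus and proestrus without diestrus library 1.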

How the data were processed

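Polyadenylated RNA of mouse uterus was sequenced as 8 stranded libraries, per the labels' protocols. The deposited values are read counts per gene, not normalised, which the authors made with STAR and featureCounts of Subread on GRCm38 (mm10), per the submitters' processing notes. No source used here gives their versions, parameters or use of strand. No column of per-sample values was left unused.

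Symbols, coordinates and exon lengths came from GENCODE M21, which lists 52058 of the 52308 identifiers, and the 250 without a symbol took up to 0.0107% of a library's counts. Groups followed the stage in the labels. Tests were run in R 4.3.3 with edgeR 4.0.16 (filterByExpr by stage, which left 18114 genes, TMM factors of 0.8975 to 1.111, 1 coefficient per stage, all 8 libraries, 4 residual and 2.698 prior degrees of freedom, quasi-likelihood F tests, Benjamini-Hochberg adjustment over all tested genes). The SE was taken as the log2 fold change over the root of F. All 9 members were tested, with 2 to 15861 counts per library. From each role list of other retinoid genes, up to 4 with the smallest p across the stages were named among those called, and for each member the 3 genes with the highest correlation. Some genes that this rule names are not reported here. Steps were checked on simulated counts. Alternatives were DESeq2 size factors, DESeq2 1.42.0, limma-voom of limma 3.58.1, other count filters, only the libraries of a pair, a replicate block, and fits that lack 1 library, where the lone sample of a stage is assumed to vary like the other stages. Members, lists and alternatives were chosen with earlier results of these data known.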

Additional observations from a re-analysis of the deposited data

How the results depend on the processing

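Between stages and across them, 29 calls were made for the 9 genes. Of 428 recomputed calls, 354 were kept and 74 ended, and 10 of the 29 calls were kept under every alternative: Stra6 across the stages and between metestrus and estrus, Aldh1a2 across the stages and in 3 pairs, Aldh1a3 across the stages, Crabp2 across the stages and between proestrus and diestrus, and Cyp26b1 between metestrus and estrus. The counts of the 9 genes called ranged, without 1 library, over 4 to 8 across the stages, 1 to 7 for estrus against proestrus, 3 to 4 for metestrus against estrus, 0 to 5 for diestrus against metestrus, 2 to 6 for proestrus against diestrus, 1 to 6 for estrus against diestrus and 0 to 5 for metestrus against proestrus. For the other retinoid genes the ranges were 10 to 34, 4 to 20, 6 to 26, 0 to 11, 4 to 17, 3 to 20 and 0 to 18 in the same order. DESeq2 called 5 of the 9 for estrus against proestrus and 5 for diestrus against metestrus, and edgeR with no filter on low counts called 5 and 3. For diestrus against metestrus DESeq2 called 4 other retinoid genes, and edgeR with no filter on low counts called 2. With only the 4 libraries of a pair, 2 of the 9 were called for proestrus against diestrus (lost: Stra6, Rdh10 and Cyp26a1) and 2 for estrus against diestrus (lost: Rdh10, Aldh1a3, Cyp26a1 and Cyp26b1), and 5, 6 and 17 of the other genes for proestrus against diestrus, estrus against diestrus and metestrus against proestrus. Signs changed for Stra6 between diestrus and metestrus (-1.02 without diestrus library 2 to 1.18 without library 1), Crabp1 between estrus and diestrus (-3.29 without diestrus library 1 to 1.60 without library 2) and Ttr. For Ttr the range without 1 library was -8.88 to 0.70 for proestrus against diestrus and -4.52 to 5.09 for metestrus against proestrus, the outer values -8.88 and 5.09 coming from the fit without proestrus library 1, in which the remaining proestrus library has 0 counts, so that they are no bounds. Of all tested genes, DESeq2 called 3734 for estrus against proestrus and 980 for diestrus against metestrus, where edgeR called 2727 and 92. With only the libraries of a pair, 1130 were called for proestrus against diestrus and 1939 for estrus against diestrus. With all libraries these numbers were 4050 and 4317. The number called over all tested genes also moved in the fits that lack 1 library. The causes were not tested.

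Replicate numbers showed no strong shift shared by the stages: the deviations of replicate 1 from the stage means correlated between stages at -0.093 to 0.145. Such correlations over all tested genes cannot exclude a pairing that touches few of them. With the replicate number as a block, 6, 3, 3, 0, 5, 5 and 4 of the 9 genes were called across the stages and in the 6 pairs, against 7, 3, 3, 0, 5, 6 and 5 without it. The calls it ended were those of Rdh10 across the stages, Cyp26a1 for estrus against diestrus and Crabp2 for metestrus against proestrus. Depth limits Cyp26a1 in proestrus, with 2 and 4 counts.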
